A study of Homo sapiens with 16 samples.

Results

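The genes described here encode the spliceosome's proteins and the RNA-binding proteins that guide it: 68 of the 10304 transcripts listed in the study, taken by gene symbol. The rule kept every symbol beginning with SRSF and a digit, HNRNP, SF3A or SF3B and a digit, PRPF and a digit, SNRNP or SNRP, apart from 1 gene that was left out. It used names and no measured value. The members were 19 hnRNP genes, 11 SR protein genes, 8 SF3A and SF3B genes, 12 PRPF genes and 18 genes for Sm and other small nuclear ribonucleoprotein (snRNP) proteins. The series is a PRO-seq time course, in which nuclear run-on labels the RNA held by engaged polymerases so that reads mark where transcription is under way. All 14 libraries came from Kasumi-1 cells, an established line from acute myeloid leukaemia with the RUNX1-RUNX1T1 fusion gene. Both SMARCA5 alleles carried an FKBP12F36V tag, and SMARCA5 is the motor subunit of ISWI complexes, which space nucleosomes. dTAG-47 directs the tagged protein to degradation, and cells were taken untreated (0 h, n = 5) or after 2 h (n = 3), 6 h (n = 4) or 24 h (n = 2) with 500 nM of it. The untreated controls carry the same tag and no group received the compound's vehicle or an inactive analog according to the labels, and 2 samples of the parental line were not analysed here.

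Introns are removed by the spliceosome, which assembles on each pre-mRNA from the U1, U2, U4, U5 and U6 snRNPs. Each snRNP holds a small RNA, a ring of Sm or related LSM proteins and proteins of its own, and the SF3A and SF3B complexes belong to the U2 snRNP, where they hold it at the branch point. SR proteins bind exons and mostly favour the use of nearby splice sites, whereas hnRNP proteins coat nascent RNA and often oppose it. Several SR and hnRNP genes are known to tune their own output through alternative splicing of their transcripts, a step that PRO-seq does not read, and mutations of SRSF2 and SF3B1 recur in myeloid malignancies.

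The names held up with 3 reservations. HNRNPU-AS1 is an antisense transcript, HNRNPUL2-BSCL2 is a readthrough of a pair of neighbouring genes, and SF3B14 is an older symbol of SF3B6. The older symbols HNRPDL and HNRPLL escaped the rule and are counted with the other splicing regulators at the end. SRSF8, a close copy of SRSF2, HNRNPA1L2, a close copy of HNRNPA1, and members with many processed pseudogenes, such as SNRPE and SNRPG, could exchange reads with their copies. How reads with several matches were treated is not given in the sources used here, so the values of these genes are uncertain.

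Reads were counted per transcript in the gene body, 11182894 to 34209362 per library, and in the promoter-proximal region, 1667950 to 7171601 per library, and all 68 members passed the filter on low counts in both. Levels are counts scaled to a fixed library total (CPM), and every change is relative to the other genes of the same library, so a change common to all transcripts would not show. The column names letter the libraries A or B within a time and add a number code, called a run here, which the sources used here do not explain. Run 1 held 2 untreated libraries and 1 at 2 h, run 2 held 2 libraries at each of the 4 times, and run 3 held 1 untreated library and 2 at 6 h. Run was a term of every test. Libraries are described as biological replicates in the design text, but separate cultures are not mentioned, so p-values measure the spread between these libraries. Reads on SMARCA5 itself, whose protein rather than gene is the target, had log2 fold changes of -0.27, -0.11 and -0.18 at 2, 6 and 24 h (adjusted p = 0.0779, 0.519 and 0.408). All 7 myeloid markers looked for, KIT and MPO among them, were listed, and of 13 markers of B, T, erythroid and epithelial cells EPCAM alone was listed, at 29.6 CPM.

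In untreated cells the splicing genes were transcribed densely. The median member had 5.42 CPM per kb of transcript span, against 1.94 for all listed transcripts, and 62 of 68 members lay above that latter median. HNRNPA2B1 led with 36.4 ± 4.84 CPM per kb (SD over the 5 untreated libraries), followed by HNRNPA3 with 28.9 ± 7.26, HNRNPF with 24.9 ± 3.36, SRSF2 with 21.4 ± 1.83 and SRSF3 with 18.9 ± 4.84. Among these 5 the SDs of neighbours in the order overlap. At the other end stood SNRNP25, a protein of the minor spliceosome's U11 and U12 particle, with 0.743 ± 0.221, then HNRNPA1L2 with 1.36 ± 0.262 and PRPF18, a second-step factor, with 1.46 ± 0.0837. By family the median was 13.1 CPM per kb for hnRNP genes, 8.29 for SR genes, 3.99 for SF3A and SF3B genes, 3.94 for Sm and snRNP genes and 3.10 for PRPF genes. Single members of the families overlapped in level. Members were shorter than the listed transcripts as a whole (median span 14.4 against 24.8 kb) and had more promoter-proximal reads per gene-body read (median ratio 0.276 against 0.137).

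**Figure D1:**
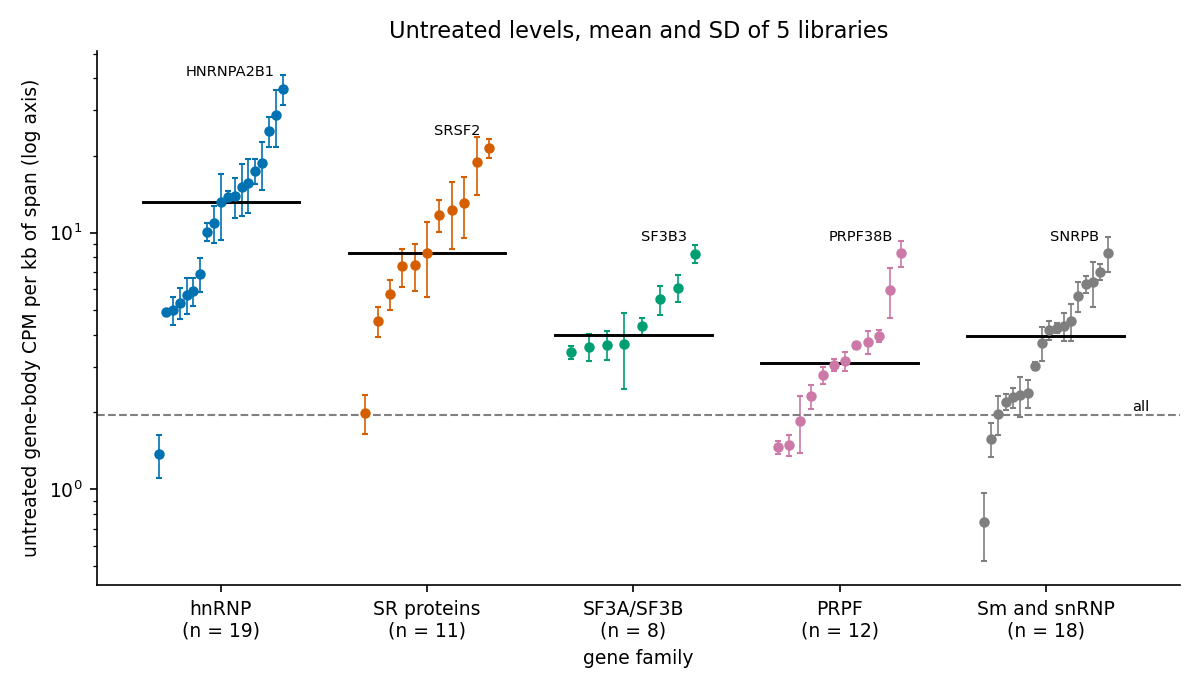
Untreated gene-body level of each of the 68 members in CPM per kb of transcript span, on a log axis, by family; points and bars are the mean and SD of 5 untreated libraries, black lines are family medians and the dashed line is the median of all listed transcripts (1.94). The hnRNP and SR families stand highest, and SNRNP25 is the lowest member.

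After dTAG-47 the 68 genes neither rose nor fell as a block. At 2 h, 9 members rose and 13 fell in gene bodies (edgeR, adjusted p under 0.05), or 32.4% of the 68, where 38.6% of all transcripts were called, 19.7% higher and 18.9% lower. At 6 h 1 rose and 4 fell (7.35%, against 26.8% of all transcripts, 13.5% higher and 13.4% lower). At 24 h 5 rose and 3 fell (11.8%, against 19.8%, 10.8% higher and 9.08% lower). The members' median log2 fold change was -0.054, -0.042 and -0.063 at the 3 times, beside 0.014, 0.012 and 0.011 for all transcripts. Over the 3 times 24 members were called, 10 that rose and 14 that fell, none in both directions, and 44 were never called. The share of all transcripts called at any of the 3 times was not counted, so these totals have no background beside them. Changes were small: after SNRNP25 (0.98 at 2 h and 1.01 at 24 h) the largest called log2 fold changes were -0.51 for SRSF8 at 2 h and 0.50 for SF3B4 at 24 h. The 2 h counts lean on the 2 h library of run 1: without it 5 members rose and 2 fell (10.3%, against 18.7% of all transcripts), and the members' median was 0.025. The libraries of run 2 alone gave 15 that rose and 7 that fell at 2 h, 11 and 7 at 6 h and 11 and 7 at 24 h. Of all transcripts 38.2%, 42.5% and 43.2% were called in that fit at these times.

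The hnRNP and SR families leaned downward at 2 h. Of 19 hnRNP genes 16 had a negative log2 fold change (median -0.20), with 5 called lower and 2 higher. Of 11 SR genes 8 had a negative value (median -0.22), with 4 called lower and 1 higher. Without the 2 h library of run 1 the medians were -0.035 and -0.033, with 12 of 19 and 7 of 11 genes lower, and 0 genes of either family were called lower by edgeR. The calls of the SF3A and SF3B genes (1 higher, 1 lower), the PRPF genes (3 higher, 2 lower) and the Sm and snRNP genes (2 higher, 1 lower) were split at 2 h, and the families' medians were 0.085, 0.049 and -0.024. Called or not, 6 of 8 SF3A and SF3B, 8 of 12 PRPF and 8 of 18 Sm and snRNP genes had a positive value. Without the 2 h library of run 1 these were 6 of 8, 8 of 12 and 14 of 18, with medians of 0.145, 0.088 and 0.060. At 6 h SF3B2 was the only member called higher, and at 24 h none of the 12 PRPF genes was called in either direction by edgeR (1 at an unadjusted p under 0.05).

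At all 3 times 3 members were called, and each kept its direction: SF3B2 was higher, and SNRPA1 and HNRNPA3 were lower. How many of all transcripts were called at all 3 times was not counted. SF3B2 (chromosome 11, 65819816 to 65836382 on hg19, as listed) encodes a subunit of the SF3B complex of the U2 snRNP. Its untreated gene-body levels were 52.8 and 53.4 CPM in run 1, 56.8 and 60.5 in run 2 and 59 in run 3. At 2 h it stood at 71.5 in run 1 and at 74.6 and 74.5 in run 2. At 6 h it read 69.8 and 65.8 in run 2 and 75.9 and 72.4 in run 3, and at 24 h 68 and 67.4. Every treated library lay above all 5 untreated ones, and the groups did not overlap. The log2 fold changes were 0.39 ± 0.061 (SE; adjusted p = 0.000503), 0.27 ± 0.062 (SE; adjusted p = 0.00776) and 0.24 ± 0.075 (SE; adjusted p = 0.0378). The 2 h call held whichever library was left out. The 6 h call was lost without the untreated library of run 3 (adjusted p = 0.0715), and the 24 h call without the 24 h library A (adjusted p = 0.187), the 24 h library B (0.154) or any of 7 other single libraries (0.0777 at most).

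SNRPA1 (chromosome 15, 101821715 to 101835460) encodes the U2 A' protein, which with its partner binds the U2 RNA itself. In the order of runs its untreated levels were 89.7 and 83.9, then 70.2 and 80.0, then 64.6 CPM. They were 61.2 (run 1) and 63.6 and 60.7 (run 2) at 2 h, 56 and 61.1 (run 2) and 49.6 and 50.8 (run 3) at 6 h, and 63.6 and 59.1 at 24 h. All 9 treated libraries were lower than all 5 untreated ones, the closest untreated one being that of run 3. The log2 fold changes were -0.36 ± 0.076 (SE; adjusted p = 0.00292), -0.39 ± 0.076 (SE; adjusted p = 0.0026) and -0.33 ± 0.093 (SE; adjusted p = 0.0247). The 2 and 6 h calls held whichever library was left out, and that at 24 h was lost without the 24 h library B (adjusted p = 0.188) or the 24 h library A (0.0907) or the untreated library B in run 2 (0.0707).

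HNRNPA3 (chromosome 2, 178077422 to 178088685) encodes an A/B-type hnRNP protein. Its runs differed before treatment, with 402 and 411 CPM in run 1, 292 and 306 in run 2 and 216 in run 3. With dTAG-47 it read 251 in run 1 and 270.1 and 238 in run 2 at 2 h, 255 and 250.3 in run 2 and 150.2 and 184 in run 3 at 6 h, and 216 and 244 at 24 h. Within each run the treated libraries were lower than the untreated ones, while across runs the groups overlapped because the untreated library of run 3 was as low as treated ones of run 2. The log2 fold changes were -0.42 ± 0.095 (SE; adjusted p = 0.00426), -0.35 ± 0.094 (SE; adjusted p = 0.0154) and -0.48 ± 0.12 (SE; adjusted p = 0.012). The 2 h call was lost without the 2 h library of run 1 (adjusted p = 0.0574), the 6 h call without the untreated library of run 3 (adjusted p = 0.0848) or the 6 h library B in run 2 (0.0561) and the 24 h call without the 24 h library A (adjusted p = 0.143).

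**Figure D2:**
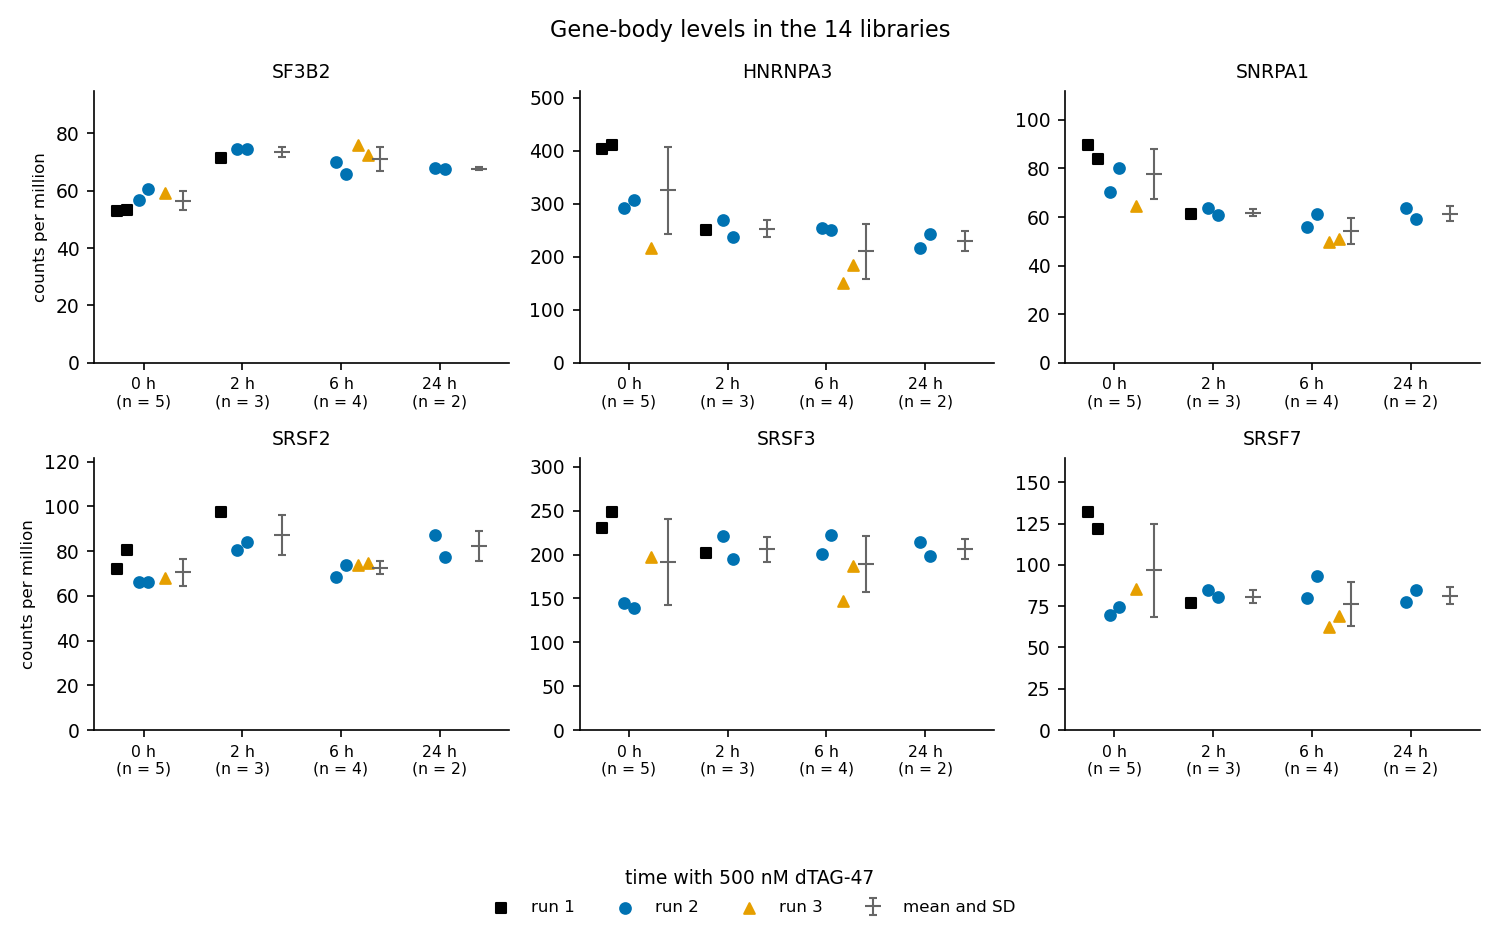
Gene-body CPM of 6 members in each of the 14 libraries by time with dTAG-47; symbols mark the run and grey bars the mean and SD over all libraries of a time. SF3B2 and SNRPA1 separate from untreated cells at every time, HNRNPA3 falls within each run, and SRSF3 and SRSF7 move in different directions in different runs.

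The sequences just before the start sites of these 3 genes are shown because the genes changed at every time. They are the 250 bases before the RefSeq start on GRCh38.p14, 5′ to 3′ along the gene's strand, with capitals marking motifs on either strand. The motifs are the ETS core CCGGAAG, which factors such as GABPA recognise, the CCAAT box, the GC box GGGCGG, the TATA box TATAAA and the E-box CACGTG, and no pair of them overlaps in the sequences shown. SF3B2 (chr11:66052114-66052363, plus strand) holds 2 ETS cores close to its start, SNRPA1 (chr15:101295249-101295498, minus strand) 1 ETS core and 1 CCAAT, and HNRNPA3 (chr2:177212544-177212793, plus strand) 3 GC boxes, 1 CCAAT and 1 E-box.
SF3B2: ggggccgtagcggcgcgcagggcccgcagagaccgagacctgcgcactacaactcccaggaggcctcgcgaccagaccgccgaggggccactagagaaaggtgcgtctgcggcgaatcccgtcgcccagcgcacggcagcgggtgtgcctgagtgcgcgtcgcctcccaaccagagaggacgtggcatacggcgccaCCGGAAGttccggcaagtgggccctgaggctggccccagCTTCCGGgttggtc
SNRPA1: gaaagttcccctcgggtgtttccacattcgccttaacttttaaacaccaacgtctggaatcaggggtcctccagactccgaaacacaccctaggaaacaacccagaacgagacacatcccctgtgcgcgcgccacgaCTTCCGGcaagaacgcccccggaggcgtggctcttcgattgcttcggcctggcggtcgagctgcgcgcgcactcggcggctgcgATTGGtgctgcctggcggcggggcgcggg
HNRNPA3: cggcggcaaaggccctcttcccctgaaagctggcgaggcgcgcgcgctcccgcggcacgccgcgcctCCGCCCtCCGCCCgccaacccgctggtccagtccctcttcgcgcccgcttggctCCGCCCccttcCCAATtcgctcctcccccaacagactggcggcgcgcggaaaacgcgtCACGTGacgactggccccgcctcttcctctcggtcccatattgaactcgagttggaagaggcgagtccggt

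Promoter windows of 250 bases before to 50 after the start were matched for 60 of the 68 members. The ETS core was found in 22 of them (36.7%), beside 21.8% of the 8422 matched promoters of listed transcripts and 10.7% of all 27305 promoters in the table. It was unevenly spread over the families, present in 6 of 7 SF3A and SF3B promoters and 9 of 16 Sm and snRNP promoters but in 3 of 9 PRPF, 2 of 18 hnRNP and 2 of 10 SR promoters. CCAAT was in 46.7% of members against 37.7% of the listed, with 12 of 18 hnRNP, 6 of 9 PRPF, 8 of 16 Sm and snRNP, 2 of 10 SR and 0 of 7 SF3A and SF3B promoters. GGGCGG was in 61.7% of members (71.7% of the listed), TATAAA in 11.7% (4.95%) and CACGTG in 11.7% (11.0%). Of the 21 matched members called in gene bodies 4 held the ETS core, and of the 39 not called 18 did. These are letter matches, with no test and no reading of binding.

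Among the other SF3 genes, SF3B1, the branch-point-binding subunit that is recurrently mutated in myeloid disease, fell at 2 h, with a log2 fold change of -0.23 ± 0.069 (SE; adjusted p = 0.019). Its untreated levels were 304 and 286 CPM in run 1, 236 and 255 in run 2 and 231 in run 3, against 225 in run 1 and 241 and 216 in run 2 at 2 h. The run 1 library lay furthest below its own controls, and the call was lost without the 2 h library of run 1 (adjusted p = 0.199) or the 2 h library B in run 2 (0.0606). SF3B4, an RNA-binding subunit of the same complex, was called at 24 h alone (log2 fold change 0.50 ± 0.15 SE, adjusted p = 0.0356). It stood at 12.2 and 12.1 CPM in the untreated and 19.6 and 19.5 in the 24 h libraries of run 2, while untreated libraries of run 1 read 22 and 25.5 and that of run 3 18.7. Without the run term its adjusted p was 0.836, so the call rests on the comparison inside run 2. It was also lost without the 24 h library A (adjusted p = 0.165), the 24 h library B (0.147) or any of 3 other single libraries (0.101 at most).

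Among the PRPF genes, PRPF38B fell at 2 h (log2 fold change -0.32 ± 0.12 SE, adjusted p = 0.0473). It went from 93 and 82.6 to 54.4 CPM in run 1 and from 73.3 and 74.1 to 73.5 and 72.2 in run 2, where the values overlapped, and the call was lost without the 2 h library of run 1 (adjusted p = 0.586), the untreated library of run 3 (0.0866) or any of 9 other single libraries (0.0851 at most).

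PRPF31, PRPF6 and PRPF4 were the PRPF genes that rose at 2 h. PRPF31, which bridges the particle's parts, had a log2 fold change of 0.39 ± 0.13 (SE; adjusted p = 0.0265), PRPF6, another bridging protein, of 0.27 ± 0.084 (SE; adjusted p = 0.0231), and PRPF4, a U4/U6 protein, of 0.21 ± 0.066 (SE; adjusted p = 0.0213). PRPF31 went from 19.9 and 25.7 CPM to 37.5 in run 1, whereas in run 2 it was 35.4 and 30.5 untreated and 33.8 and 38.5 at 2 h, where the values overlapped. PRPF6 went from 64.9 and 75.2 to 87.9 in run 1 and from 80.5 and 83.5 to 88.5 and 95.9 in run 2. Without the 2 h library of run 1 none of the 3 passed (adjusted p = 0.383, 0.131 and 0.13). PRPF8, the catalytic core's scaffold, and SNRNP200, the helicase that unwinds U4 from U6, had log2 fold changes at 2 h of 0.010 ± 0.068 and 0.13 ± 0.067 (SE; adjusted p = 0.923 and 0.126). The genes of other tri-snRNP proteins, PRPF3, SNRNP27 and SNRNP40, had 0.15 ± 0.076, 0.10 ± 0.13 and -0.069 ± 0.073 (SE; adjusted p = 0.136, 0.569 and 0.475) and were not called.

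Among Sm and snRNP genes SNRNP25 had the largest change of any member and the lowest level per kb. Its raw gene-body counts were 69 and 74 untreated and 212 at 2 h in run 1. In run 2 they were 37 and 27 untreated, 66 and 68 at 2 h, 40 and 58 at 6 h and 59 and 74 at 24 h, and in run 3 78 untreated and 115 and 98 at 6 h. As CPM, the untreated libraries of runs 1 and 2 were 2.45 and 2.60 and 2.38 and 2.49, the untreated library of run 3 was higher at 4.36, and the 2 h libraries were 5.94 in run 1 and 4.90 and 4.69 in run 2. Its log2 fold changes were 0.98 ± 0.18 (SE; adjusted p = 0.00161) at 2 h and 1.01 ± 0.24 (SE; adjusted p = 0.0101) at 24 h, with 0.39 ± 0.19 (SE; adjusted p = 0.153) at 6 h. The 2 h call held whichever library was left out, and the 24 h call was lost without the 24 h library B (adjusted p = 0.105).

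SNRPD3, a protein of the Sm ring, rose at 2 h (log2 fold change 0.23 ± 0.066 SE, adjusted p = 0.0164), from 49.2 and 50.8 to 61.7 CPM in run 1 and from 52.9 and 49.6 to 60.2 and 56.9 in run 2. All 3 of its 2 h libraries were above all 5 untreated ones, and at 6 and 24 h its log2 fold changes were -0.019 and 0.028 (adjusted p = 0.864 and 0.841). The call was lost without the 2 h library of run 1 (adjusted p = 0.116).

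In the hnRNP family HNRNPAB, an A/B-type RNA-binding protein, was the member that rose at both 2 and 24 h. Untreated levels were 92.2 and 100.2 CPM in run 1, 88.5 and 86.7 in run 2 and 93.5 in run 3. They were 109.7 (run 1) and 110.1 and 107 (run 2) at 2 h and 113 and 109 at 24 h, all above every untreated library. At 6 h they were 101 and 95.5 in run 2 and 114 and 96.8 in run 3, overlapping the untreated range. The log2 fold change of HNRNPAB was 0.26 ± 0.067 (SE; adjusted p = 0.00844) at 2 h and 0.32 ± 0.082 (SE; adjusted p = 0.0157) at 24 h. The 2 h call held whichever library was left out, and the 24 h call was lost without the 24 h library A (adjusted p = 0.127) or the 24 h library B (0.0768).

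HNRNPU, a nuclear scaffold protein, fell at 2 h, with a log2 fold change of -0.45 ± 0.13 (SE; adjusted p = 0.0136). It read 257 and 185 CPM in the untreated libraries of run 1, which differed widely, and 124 at 2 h in that run. In run 2 it went from 179 and 194 to 169 and 159. The other called falls at 2 h were HNRNPA1 (-0.26 ± 0.089), HNRNPA2B1 (-0.25 ± 0.082) and HNRNPR (-0.23 ± 0.082, all log2 ± SE; adjusted p = 0.0359, 0.028 and 0.0396), and the readthrough HNRNPUL2-BSCL2 rose (log2 fold change 0.24 ± 0.080 SE, adjusted p = 0.033). Of the 7 hnRNP calls at 2 h, only HNRNPAB's held without the 2 h library of run 1. The others then had adjusted p-values of 0.194 for HNRNPU, 0.441 for HNRNPA1, 0.372 for HNRNPA2B1, 0.54 for HNRNPR and 0.409 for HNRNPUL2-BSCL2. The calls of HNRNPA1, HNRNPA2B1, HNRNPR and HNRNPUL2-BSCL2 were also lost without 7, 2, 10 and 3 other single libraries. HNRNPC, which binds uridine tracts, read 1162 and 1119 CPM untreated and 709 at 2 h in run 1 but 763 and 779 untreated and 807 and 737 at 2 h in run 2, and missed the threshold (log2 fold change -0.26 ± 0.10 SE, adjusted p = 0.0535).

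SRSF2, an SR protein that binds exonic enhancers and is recurrently mutated in myeloid disease, rose at 2 and 24 h. Its gene-body levels untreated were 72 and 80.5 CPM in run 1, 66.3 and 66.2 in run 2 and 67.8 in run 3. They were 97.4 (run 1) and 80.3 and 83.9 (run 2) at 2 h, 68.2 and 73.8 (run 2) and 73.8 and 74.4 (run 3) at 6 h, and 87 and 77.5 at 24 h. Within runs each 2 h and 24 h library lay above its controls, although the higher untreated library of run 1 overlapped the treated ranges of run 2. The log2 fold changes of SRSF2 were 0.33 ± 0.065 (SE; adjusted p = 0.00222) at 2 h, 0.12 ± 0.067 (SE; adjusted p = 0.219) at 6 h and 0.32 ± 0.081 (SE; adjusted p = 0.014) at 24 h. The 2 h call held whichever library was left out, and the 24 h call was lost without the 24 h library A (adjusted p = 0.186). MFSD11 overlaps SRSF2 in the listing and rose by 0.39 on the log2 scale at 2 h (adjusted p = 0.00103), and the strand counted is not given in the sources used here, so reads of this pair cannot be told apart.

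The SR genes that fell were SRSF10, SRSF8, SRSF1 and SRSF11 at 2 h, SRSF9 at 6 h and SRSF10 again at 24 h. SRSF10, an atypical SR protein that represses splicing when dephosphorylated, went from 126 and 126 to 78 CPM in run 1. In run 2 it read 91.3 and 103 untreated, 91.4 and 86 at 2 h and 82.2 and 78.1 at 24 h. The 24 h libraries were below both run 2 controls, while the 2 h values overlapped them narrowly. Its log2 fold changes were -0.35 ± 0.098 (SE; adjusted p = 0.0134) at 2 h and -0.39 ± 0.12 (SE; adjusted p = 0.0388) at 24 h, and the 2 h call was lost without the 2 h library of run 1 (adjusted p = 0.193). The 24 h call was lost without the 24 h library B (adjusted p = 0.207), the 24 h library A (0.144) or any of 5 other single libraries (0.0682 at most).

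SRSF1, the prototype of the family, stood at 84.1 and 76.7 CPM untreated and 66.8 at 2 h in run 1, and at 75.7 and 82.4 untreated and 65.1 and 67.8 at 2 h in run 2. Its log2 fold change was -0.27 ± 0.084 (SE; adjusted p = 0.0207), being -0.27 within run 1 and -0.25 within run 2, and the call was lost without the 2 h library of run 1 (adjusted p = 0.0764). Its 2 h libraries lay below the untreated ones of runs 1 and 2 and above that of run 3, at 57.4 CPM. SRSF9 at 6 h was 47.7 and 47 CPM in run 2, against 52.3 and 48.7 untreated, and 38.1 and 44.3 in run 3, against 57.5. Its change of -0.27 ± 0.087 (SE; adjusted p = 0.0326) was lost without the untreated library of run 3 (adjusted p = 0.366), the 6 h library B in run 2 (0.0626) or any of 3 other single libraries (0.0621 at most). The gene GATC overlaps SRSF9 in the listing. The falls of SRSF8 (log2 fold change -0.51 ± 0.18 SE, adjusted p = 0.0397) and SRSF11 (log2 fold change -0.22 ± 0.081 SE, adjusted p = 0.0465) were lost without the 2 h library of run 1 (adjusted p = 0.326 and 0.565) and without 8 and 11 other single libraries.

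The runs did not give the same 2 h change for these genes. The change in run 1 (1 treated against 2 untreated libraries) minus that in run 2 (2 against 2) differed from 0 for 26 of 68 members, 38.2%, where 28.3% of all transcripts did. It was lower in run 1 for 25 of the 26, HNRNPUL2-BSCL2 being the exception. The 26 comprised 12 of 19 hnRNP genes, 7 of 11 SR genes, 4 of 18 Sm and snRNP genes, 3 of 12 PRPF genes and 0 of 8 SF3A and SF3B genes. The single 2 h library of run 1 is assumed in this test to vary like the others. The median difference was -0.29 over the members and -0.013 over all transcripts. It was below 0 for 53 of 68 members and for 5288 of 10304 transcripts. The median within-run change at 2 h was -0.22 in run 1, with 50 of 68 members lower, and 0.053 in run 2, with 26 lower, beside 0.012 and 0.011 for all transcripts.

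SR genes had the widest gaps. Leaving out single libraries moved the count of 26 between 17 and 34. SRSF7, whose zinc knuckle sets it apart in the family, read 132 and 122 CPM untreated and 76.8 at 2 h in run 1, but 69.4 and 74.8 untreated and 85 and 80.5 at 2 h in run 2. The treated values of the runs lay close together, and the untreated ones were further apart. The difference between the runs' changes was -0.92 ± 0.15 (SE; adjusted p = 0.00125). SRSF6 had -0.89 ± 0.14 (SE; adjusted p = 0.00116), with 102 and 91.1 CPM untreated and 56.1 treated in run 1 and 59.4 and 62 against 66.5 and 64.2 in run 2.

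SRSF3, a small SR protein that also serves mRNA export, read 229.8 and 248 CPM untreated and 201 at 2 h in run 1. In run 2 it was 145 and 139 untreated, 221 and 195 at 2 h, 201 and 222 at 6 h and 214 and 198 at 24 h, so the 2 untreated libraries stood below all 6 treated ones. In run 3 it was 197 untreated and 147 and 187 at 6 h. Over all runs SRSF3 was called at no time (0.14, 0.15 and 0.24 on the log2 scale), and the difference between runs 1 and 2 was -0.80 ± 0.17 (SE; adjusted p = 0.00473). In run 2 SRSF5 was also higher at 2 h, while in run 1 its 2 h library lay between its controls, with 26.4 and 28 CPM untreated and 50.7 and 43.2 at 2 h in run 2 against 43 and 56.6 untreated and 50.9 at 2 h in run 1, a difference of -0.76 ± 0.22 (SE; adjusted p = 0.0247). HNRNPH1, which binds G runs, had -0.75 ± 0.13 (SE; adjusted p = 0.00172) and HNRNPH3 -0.77 ± 0.14 (SE; adjusted p = 0.00256).

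**Figure D3:**
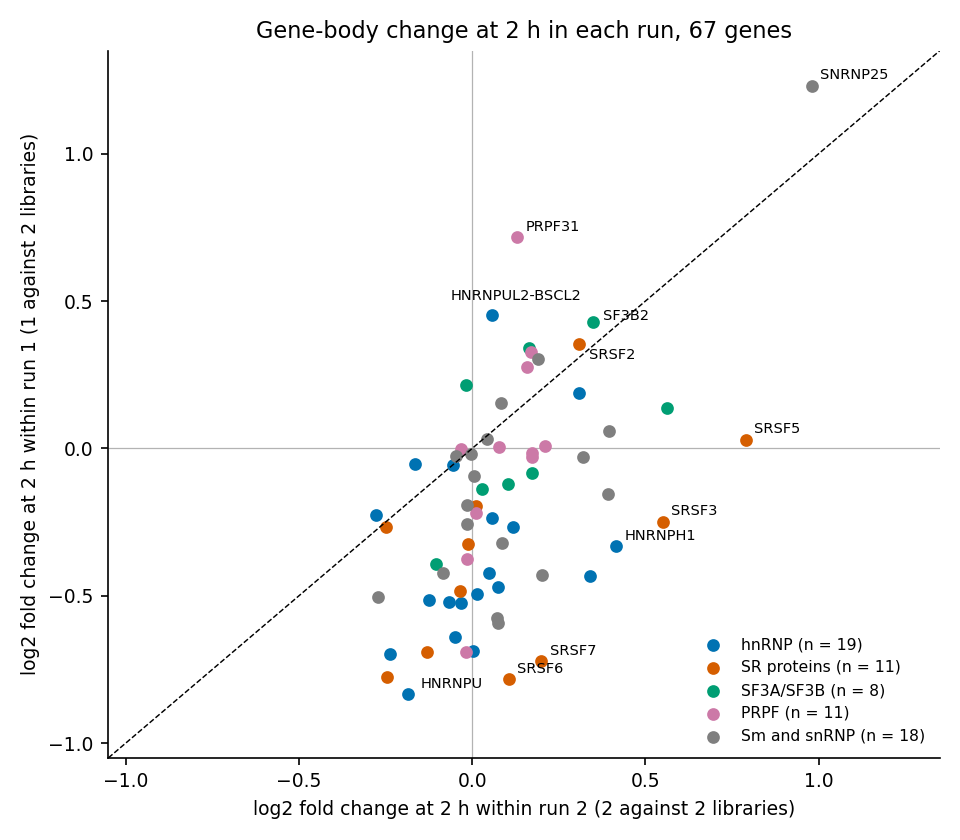
Gene-body log2 fold change at 2 h within run 1 (vertical, 1 treated against 2 untreated libraries) and within run 2 (horizontal, 2 against 2) for 67 of the 68 members, coloured by family; the dashed line marks equal change. Most hnRNP and SR genes lie below the line, and SF3B2, SRSF2 and SNRNP25 lie near it.

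Gene-body reads on the members made up 0.937% and 0.948% of all gene-body reads in the untreated libraries of run 1 and 0.857% in its 2 h library. The other 3 untreated libraries had 0.818% to 0.827%, and the 2 h libraries of run 2 0.888% and 0.863%. The untreated libraries of run 1 therefore stood highest of the 14. What distinguishes the runs cannot be told apart from the libraries they hold, and its part in the 2 h calls was not tested beyond leaving libraries out. Of the 22 calls at 2 h, 6 held without the 2 h library of run 1, and 7 without all of run 1 (an alternative chosen after seeing the data), among them SNRNP25, SF3B2, SRSF2, HNRNPAB, HNRNPU and SNRPA1. All 13 members called lower at 2 h had a larger change in run 1 than in run 2, with the same sign in both. So did 8 of the 9 called higher, and all 9 had the same sign in both runs. These members were called in a fit that pools both runs. Equal signs therefore follow in part from that choice and are no separate support for the calls.

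At 6 h run 3 minus run 2 gave 0 called members (0.437% of all transcripts; edgeR), with 14 members at an unadjusted p under 0.05. SRSF3 came closest (log2 fold change -0.81 ± 0.16 SE, adjusted p = 0.0557), followed by SRSF7 (log2 fold change -0.64 ± 0.15 SE, adjusted p = 0.107). The SR genes' median 6 h change was 0.069 in run 2 and -0.23 in run 3, where 10 of 11 were lower against a single untreated library. Over all 5 within-run changes 9 members were always higher (HNRNPAB, PRPF3, PRPF4, PRPF6, SF3A2, SF3B2, SF3B4, SNRPD2 and SRSF2). Another 10 were always lower (among them HNRNPA1L2, HNRNPA3, HNRNPU, SF3B1, SNRPA1, SNRPC, SRSF1, SRSF10 and SRSF11), and 49 changed sign. The 3 changes within run 2 share its untreated libraries, as do those of each run, so these signs are not separate observations. The share of all transcripts with 5 equal signs was not counted, so these counts show nothing particular to the members.

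**Figure D4:**
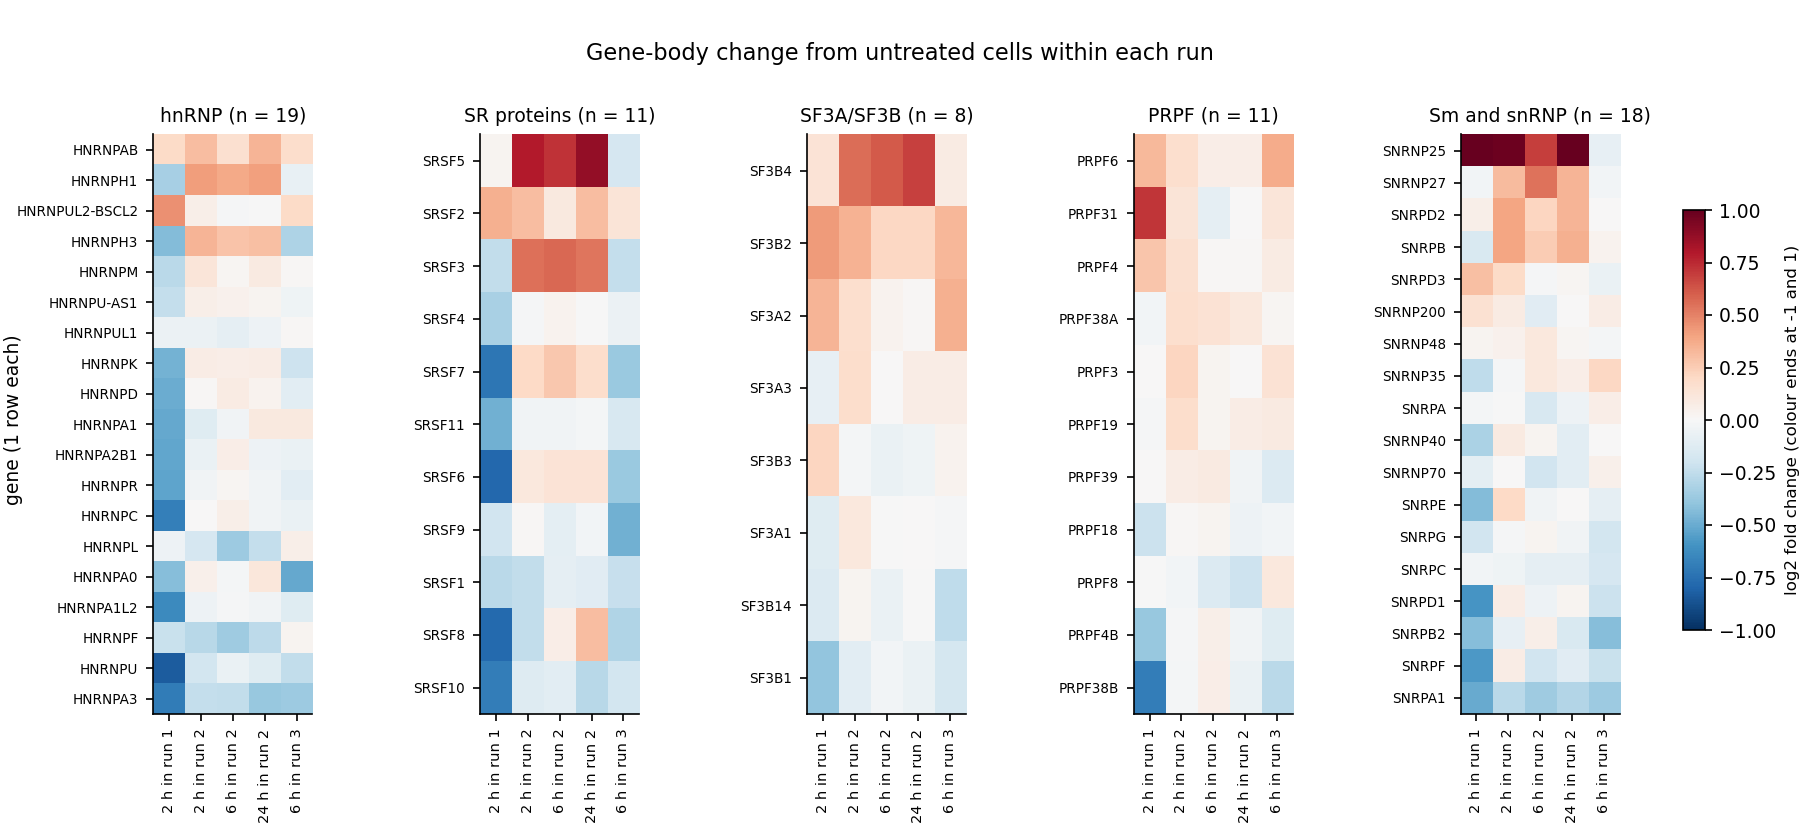
Gene-body log2 fold change from the untreated libraries of the same run for 67 of the 68 members (1 line each, by family) in 5 within-run comparisons (columns); red is higher and blue lower, with colours ending at -1 and 1. The first column, 2 h in run 1, is mostly blue for hnRNP and SR genes, and SRSF3 and SRSF5 are red at all times in run 2.

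No member was called between treated times. The test of 6 h minus 2 h called 0 of 68 (1.58% of all transcripts; edgeR; 6 at an unadjusted p under 0.05), and that of 24 h minus 2 h called 0 (4.08%; 3 at an unadjusted p under 0.05). The calls of 14 members at 2 h alone are thus not shown to differ from their values at 6 or 24 h. All 7 members called at both 2 and 24 h had the same direction at both, in comparisons that share the untreated libraries.

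Promoter-proximal reads, which reflect polymerases held just downstream of the start, were noisier. At 2 h 1 member rose and 1 fell (2.94%, against 4.61% of all transcripts, 2.43% higher and 2.17% lower). At 6 and 24 h 0 were called (2.24% and 1.41% of all; edgeR), with 6 and 3 members at an unadjusted p under 0.05. The members' median change was -0.069, -0.058 and -0.073 on the log2 scale. By family the median at 2 h was -0.48 for SF3A and SF3B genes, where SF3A1 (-0.80, adjusted p = 0.0648) and SF3B1 (-0.77, adjusted p = 0.132) had the lowest values, and 0.091 for hnRNP genes.

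HNRNPAB rose near its promoter at 2 h, as it did in the gene body. Its promoter-proximal levels were 131 and 119 CPM untreated and 194 at 2 h in run 1. In run 2 they were 161 and 145 untreated, 338 and 579.9 at 2 h, 242 and 181 at 6 h and 486 and 174 at 24 h, and in run 3 301 untreated and 343 and 322 at 6 h. Within runs the 2 h libraries were above their controls, though the untreated library of run 3 was above the 2 h library of run 1, and libraries of a time differed widely. Its 2 h log2 fold change there was 1.20 ± 0.28 (SE; adjusted p = 0.0222). The call was lost without the 2 h library B in run 2 (adjusted p = 0.133) or the untreated library B in run 2 (0.0858) or the untreated library A in run 2 (0.0759), and with the gene-body counts' scaling (adjusted p = 0.225).

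HNRNPK, a poly(C)-binding protein, fell there, with a log2 fold change of -0.89 ± 0.23 (SE; adjusted p = 0.0329). Promoter-proximal CPM was 822 and 555 untreated and 469 at 2 h in run 1, 768 and 902 untreated and 332 and 399.5 at 2 h in run 2, and 285 in the untreated library of run 3, which was lower than all 2 h libraries. Within runs 1 and 2 every 2 h library lay below its controls. In the gene body HNRNPK had a log2 fold change of -0.17 ± 0.10 (SE; adjusted p = 0.206). The promoter-proximal call was lost without the 2 h library A in run 2 (adjusted p = 0.162), the 2 h library B in run 2 (0.121) or any of 5 other single libraries (0.108 at most), and with the gene-body counts' scaling (adjusted p = 0.307).

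The 250 bases before the starts of these genes are shown, as above, because they are the 2 members whose promoter-proximal reads were called. HNRNPK (chr9:83980616-83980865, minus strand) holds 3 GC boxes and none of the other motifs. HNRNPAB (chr5:178204283-178204532, plus strand) holds 3 GC boxes, 2 CCAAT and a TATAAA near its start.
HNRNPK: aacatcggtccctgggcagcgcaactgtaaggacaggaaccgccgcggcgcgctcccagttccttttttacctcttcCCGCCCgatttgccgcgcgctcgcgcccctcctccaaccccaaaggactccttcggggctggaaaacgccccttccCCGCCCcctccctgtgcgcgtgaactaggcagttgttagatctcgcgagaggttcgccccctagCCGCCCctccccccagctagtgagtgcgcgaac
HNRNPAB: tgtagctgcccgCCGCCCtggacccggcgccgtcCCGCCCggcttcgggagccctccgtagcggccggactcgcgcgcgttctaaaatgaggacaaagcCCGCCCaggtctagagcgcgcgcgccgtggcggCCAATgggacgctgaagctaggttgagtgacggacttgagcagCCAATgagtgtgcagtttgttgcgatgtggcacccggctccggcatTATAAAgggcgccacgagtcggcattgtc

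SRSF2 drew an outsized share of promoter-proximal reads, in windows of unknown length. It took 0.603% to 1.32% of all promoter-proximal reads of a library and ranked between 1 and 3 among all transcripts in every library. Its untreated levels ranged over 7238 to 11600.3 CPM, the 2 h levels over 11264 to 11851, the 6 h levels over 5169 to 13529.8 and the 24 h levels over 11822 to 12602. The ranges overlap, and the 2 h change was 0.20 ± 0.29 (SE; adjusted p = 0.734). Untreated SRSF2 had 21.9 promoter-proximal reads per gene-body read, against a median of 0.276 over the members. Its span was 3.30 kb, against a median of 14.4 kb over the members. MFSD11 overlaps it and METTL23 lies within 1 kb. The strand counted is not given in the sources used here, so these reads cannot be credited to SRSF2 alone.

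**Figure D5:**
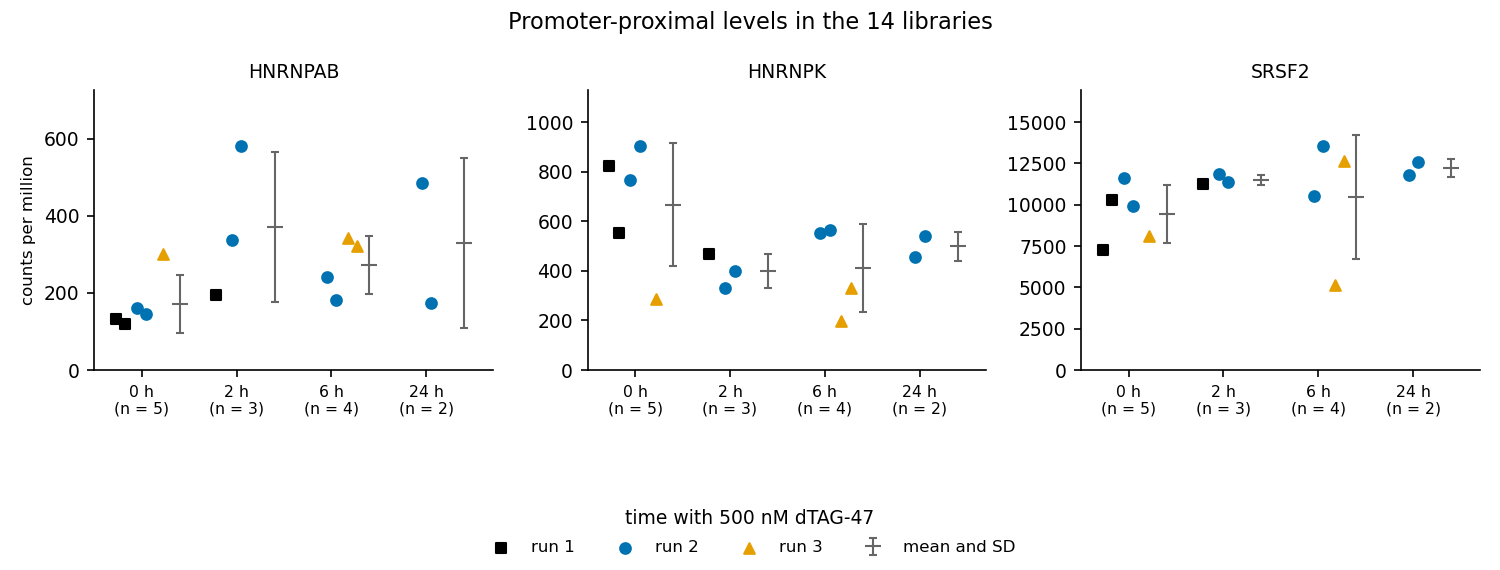
Promoter-proximal CPM of HNRNPAB, HNRNPK and SRSF2 in the 14 libraries by time; symbols mark the run and grey bars the mean and SD over all libraries of a time. The libraries of a time spread widely, and HNRNPK at 2 h lies below its controls in runs 1 and 2.

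A shift between the regions, tested within libraries as the promoter-proximal minus the gene-body log2 change (limma), was called for 0 members at 2, 6 and 24 h (1.15%, 0.401% and 0.271% of all transcripts). At an unadjusted p under 0.05 there were 15, 3 and 5 members. SF3B4 had the smallest p at each time, with -1.01 ± 0.28 (SE; adjusted p = 0.0864) at 2 h. SRSF1 had 1.17 ± 0.35 (SE; adjusted p = 0.0993), its promoter-proximal reads higher and its gene-body reads lower at 2 h.

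Neighbouring transcripts lie on or close to several members. Another listed transcript overlaps 8 members, and 21 more have one within 1 kb. Of the 24 members called in gene bodies 4 were overlapped (HNRNPAB by AGXT2L2, PRPF31 by TFPT, SRSF2 by MFSD11 and SRSF9 by GATC), and of the 44 others 4 were. At 2 h AGXT2L2, TFPT and GATC had log2 fold changes of 0.38, 0.41 and 0.18 (adjusted p = 0.0364, 0.0272 and 0.061). The authors' deposited table called 9 members higher and 14 lower in gene bodies at 2 h (40% of its transcripts, 19.8% higher and 20.3% lower), 1 and 4 at 6 h (28.4%, 13.9% and 14.5%) and 6 and 4 at 24 h (22.4%, 11.7% and 10.6%). Near promoters the authors' deposited table called none of the members (0) at any time (0.757%, 0.903% and 0.376% of transcripts).

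The wider splicing machinery is given by lists that the symbol rule does not reach, beside the same 38.6%, 26.8% and 19.8% of all transcripts. Of 46 other core spliceosome genes 5 rose and 9 fell at 2 h, 1 and 4 at 6 h and 0 and 5 at 24 h. BUD31, a protein of the activated spliceosome, rose at 2 h (log2 fold change 0.49 ± 0.073 SE, adjusted p = 0.000403), and RBM17 (log2 fold change -0.22 ± 0.055 SE, adjusted p = 0.00848) and RBM25 (log2 fold change -0.32 ± 0.078 SE, adjusted p = 0.00692) fell then and were also called lower at 6 and 24 h. Of 9 LSM genes, whose proteins are related to the Sm proteins, 3 rose and 1 fell at 2 h, with 1 and 0 at 6 h and 1 and 1 at 24 h. LSM4 rose at all 3 times (0.50, 0.40 and 0.73). Of 14 genes for Sm ring assembly 3 rose and 3 fell at 2 h, 1 and 3 at 6 h, and 1 and 1 at 24 h, and GEMIN5, which recognises the small RNAs, fell at all 3 (-0.30, -0.54 and -0.52). The log2 fold changes of these 14 ranged from -0.39 to 0.75 at 2 h, -0.54 to 0.23 at 6 h and -0.52 to 0.73 at 24 h.

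Genes that act on SR proteins or resemble them were called lower more than higher at 2 h. Of 19 SR kinases and SR-related genes 2 rose and 9 fell at 2 h (57.9%), 0 and 5 at 6 h and 0 and 4 at 24 h, with medians of -0.24, -0.16 and -0.21. LUC7L2, a U1-associated protein, had log2 fold changes of -0.54, -0.28 and -0.49, and CLK4, a kinase of SR proteins, of -0.52, -0.58 and -0.68. SRPK1, which phosphorylates them in the cytoplasm, had -0.29 at 2 h (adjusted p = 0.00233). Of 29 other RNA-binding splicing regulators 1 rose and 8 fell at 2 h, 1 and 6 at 6 h, and 1 and 4 at 24 h. RBFOX2 (-0.34, -0.32 and -0.38), SYNCRIP (-0.43, -0.33 and -0.34) and HNRPDL (-0.46, -0.34 and -0.62) fell at all 3 times. Of 11 exon junction genes PNN alone was called, lower at 2 h (-0.39) and 24 h (-0.46). Without the 2 h library of run 1 the counts at 2 h were 1 higher and 2 lower for the SR kinases and SR-related genes, 1 and 5 for the RNA-binding regulators, 1 and 1 for the core genes, 1 and 0 for the LSM genes, 1 and 2 for Sm assembly, and 0 and 1 for the exon junction, beside 18.7% of all transcripts. In that fit 14 of the 19 SR kinases and SR-related genes had a negative value at 2 h and 5 a positive one (median -0.105). At 24 h 0 of them rose and 6 fell (31.6%, against 24.8% of all transcripts). The RNA-binding regulators' median at 2 h was -0.0093.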

How the data were processed

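PRO-seq reads of 14 libraries were analysed, and 2 samples of the parental line were not analysed here. Per the submitters' processing notes the authors used Trimmomatic 0.32 and Bowtie2 2.2.2, the build hg19, and also HOMER, SAMtools, DESeq2 and DESeq. Neither the counting windows nor the strand or the treatment of reads with several matches is stated in the sources used here. The deposited tables hold raw counts per transcript for gene bodies and promoter-proximal regions in the same 14 libraries, with the authors' log2 fold changes and p-values, which are quoted only where named. A further 84 columns of normalized values were not used. Libraries were assigned by the time, letter and run code in the column names.

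The counts were tested with edgeR 4.0.16 (quasi-likelihood, TMM scaling, run and time as terms, filterByExpr by time, R 4.3.3), which kept 10304 transcripts for gene bodies and 9980 for promoter-proximal regions. P-values were adjusted over all of them by Benjamini-Hochberg and called under 0.05. CPM values use the same scaling. Promoter-proximal minus gene-body changes were tested with limma 3.58.1 on log2 CPM with a prior count of 2. DESeq2 1.42.0, DESeq2 size factors, other filters and terms, a stricter threshold and leaving out each library were alternatives, and leaving out run 1, with the list counts without it or its 2 h library, and a block of letter within run were added after seeing the data. Promoter sequences came from RefSeq on GRCh38.p14, matched by transcript accession or, where that was absent, by symbol or synonym. Spans are hg19 as deposited, and motifs were searched on both strands. Members not matched included HNRNPA1, PRPF3, PRPF39, SF3B3, SNRNP35, SNRPD1 and SRSF2. Some genes that are counted are not reported here by name.

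The members and lists were chosen with earlier results of these data known. Members named with values were, per time and region, up to 6 called members in each direction by size of change, the 3 members per family with the smallest adjusted p, the 5 highest and 3 lowest untreated levels per kb, members whose runs differed, up to 3 called genes of each other list, and those needed to account for small counts. PRPF3, PRPF8, SNRNP27, SNRNP40, SNRNP200, HNRNPC, SRSF3 and SF3A1 were further described after their values were seen.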

Additional observations from a re-analysis of the deposited data

Results flagged for a closer look

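In 9 of 172 groups of 4 or 5 libraries 1 library lay far from the others. Chance would give about 1 in 20 if all libraries of a group varied alike, but these groups hold libraries of different runs. Whether chance or run lies behind the flagged values was not tested. For untreated promoter-proximal reads HNRNPAB had 301 CPM in 1 library against at most 161 in the others, HNRNPC 141.5 against 68.4 and SRSF8 35.7 against 25, while SRSF4 had 77.5 in its lowest library with the next at 87.3. HNRNPM had 39.6 promoter-proximal CPM in 1 library at 6 h, with the next at 21.1. For untreated gene bodies HNRNPU reached 257 CPM in 1 library against 194 in the next and SNRNP25 4.36 against 2.60, and PRPF4 had 47.6 in its lowest with the next at 52.7. SRSF2 had 68.2 gene-body CPM in its lowest library at 6 h, with the next at 73.8.

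The 2 h gene-body change differed between runs 1 and 2 for 26 members (edgeR, adjusted p under 0.05 for the difference itself), on a single 2 h library in run 1. The log2 difference, run 1 minus run 2, was -0.92 for SRSF7, -0.89 for SRSF6, -0.80 for SRSF3, -0.76 for SRSF5, -0.56 for SRSF10, -0.45 for SRSF11 and -0.31 for SRSF4. Among hnRNP genes it was -0.77 for HNRNPH3, -0.75 for HNRNPH1, -0.69 for HNRNPC, -0.65 for HNRNPU, -0.54 for HNRNPK, -0.51 for HNRNPD, -0.49 for HNRNPR, -0.46 for HNRNPA3 and for HNRNPA2B1, -0.39 for HNRNPA1 and for HNRNPM, and 0.40 for HNRNPUL2-BSCL2. In the other families it was -0.67 for PRPF38B and for SNRPD1, -0.63 for SNRPE, -0.55 for SNRPB, -0.41 for SNRNP40 and -0.36 for PRPF4B.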

How the results depend on the processing

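No call of a single member changed sign under any alternative run. The members' median change did: in gene bodies at 2 h it was -0.054, but 0.051 in run 2 alone, 0.028 without run 1 and 0.025 without the 2 h library of run 1. The balance of 9 rises to 13 falls there turned in run 2 alone (15 and 7) and without the run term (5 and 0). It turned too without run 1 (8 and 3) and with only the libraries of the 2 times (4 and 3). Leaving out 2 h library B of run 1 (5 and 2) or of run 2 (7 and 6) also turned it. So did leaving out 0 h library B of run 1 (10 and 8) or 6 h library A of run 2 (9 and 8). The median also went from -0.042 to 0.025 at 6 h in run 2 alone and from -0.063 to 0.0040 at 24 h with only the libraries of the 2 times. Near promoters the median went from -0.069 to 0.0020 at 2 h without 0 h library A of run 1 and from -0.073 to 0.0017 at 24 h without 24 h library B. DESeq2's size factors, no filter on low counts and 1 transcript per symbol left every count within 1.5 times, as did DESeq2 itself except for promoter-proximal falls at 2 h, which came to 5. At an adjusted p under 0.01, gene bodies gave 4 that rose and 3 that fell at 2 h, 1 that fell at 6 h and 0 and 0 at 24 h, promoter-proximal regions 0 and 0 at 2 h, and the run difference at 2 h 16 members. Without the run term, gene bodies gave 5 that rose and 0 that fell at 2 h, 2 and 6 at 6 h and 1 and 0 at 24 h. Of all transcripts 13.2%, 29.2% and 10.8% were called in that fit. Promoter-proximal regions gave 0 and 0 at 2 h (0.0601% of all transcripts). With only the libraries of the 2 times compared, gene bodies gave 4 and 3 at 2 h, 1 and 3 at 6 h and 9 and 1 at 24 h. Of all transcripts 18.6%, 27.5% and 19.9% were called in these fits. Near promoters 1 rose and 0 fell at 2 h (2.02% of all transcripts). Run 2 alone gave 15 and 7, 11 and 7, and 11 and 7 in gene bodies at 2, 6 and 24 h (38.2%, 42.5% and 43.2% of all transcripts). It gave 9 and 9, 2 and 2, and 4 and 5 near promoters (17.2%, 9.59% and 14.6% of all transcripts). It also gave 5 members for 6 h minus 2 h, 4 for 24 h minus 2 h, and 4 and 3 for promoter-proximal minus gene-body changes at 2 and 24 h. For these counts and those at an adjusted p under 0.01 the share of all transcripts is not given here, so they have no background. Gene-body scaling gave 0 and 0 near promoters at 2 h (0.341% of all transcripts), where it moved the median of all transcripts to -0.16. Without run 1, an alternative chosen after seeing the data, 8 rose and 3 fell at 2 h in gene bodies, 3 and 4 at 6 h and 8 and 4 at 24 h. Of all transcripts 24.8%, 37.7% and 29.7% were called in that fit. The cause was not tested for any of these.

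Leaving out 1 library at a time gave 5 to 10 that rose and 2 to 17 that fell in gene bodies at 2 h (both lowest without 2 h library B of run 1), 1 to 2 and 1 to 4 at 6 h, and 1 to 7 and 0 to 4 at 24 h (both lowest without 24 h library A). It gave 0 to 2 and 0 to 5 near promoters at 2 h, 0 to 1 that rose there at 24 h, 17 to 34 members for the run difference at 2 h, 0 to 4 for that at 6 h, 0 to 1 for promoter-proximal minus gene-body changes at 2 h, and 0 to 0 for every other count. Of the 37 calls of single members, all held under DESeq2, its size factors, no filter and 1 transcript per symbol where run, 11 held without the run term, 17 with only the libraries of the 2 times, 23 in run 2 alone and 22 without run 1. The columns do not carry the labels' replicate numbers, and whether equal letters within a run mark paired libraries is not stated. In run 2 the difference between libraries A and B correlated across transcripts by -0.068 to 0.13 over the 6 pairs of times. With the letter within each run as a replicate block, a fit added after seeing the data that leaves 5 residual degrees of freedom, 6 rose and 6 fell in gene bodies at 2 h, 1 and 3 at 6 h and 3 and 3 at 24 h, and 1 and 2 near promoters at 2 h. Of all transcripts 27.6%, 22.4% and 16.7% were called in gene bodies at these times, and 4.56% near promoters at 2 h. Of the 37 calls, 23 held under this block. The 24 h libraries number 2, both in run 2, and run 1 holds 1 library at 2 h.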
